A study of Mus musculus with 2 samples.

Results

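Mucins and genes of the epithelial surface barrier were followed in whole mouse kidneys: the transmembrane mucin genes Muc1, Muc4 and Muc20, the envelope gene Sprr1a, the antibody transporter gene Pigr, the secreted protease inhibitor gene Wfdc2, the surface glycoprotein genes Cd24a and Prom1, and the epithelial transcription factor gene Elf3. The members were chosen by gene symbol in the deposited count table, in which all 9 were found among 45777 genes, and the choice was made with their read counts in view. Bulk RNA-seq was done on 1 control library and 1 library of mice with a conditional knockout (CKO) of Inmt, an amine methyltransferase gene, limited to the proximal tubule. The design asks how kidney transcripts differ when that gene is deleted there. The mice of both groups ate standard chow and received no treatment. Strain, age, sex, the driver of the recombinase, the genotype of the controls and the number of animals behind each library are not given in the sources used here.

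Transmembrane mucins are long, heavily O-glycosylated proteins that stand above the apical membrane and keep microbes and solutes away from the epithelium. Their cytoplasmic tails or extracellular parts also bind receptor tyrosine kinases and adhesion proteins. Pigr carries polymeric immunoglobulins across epithelial cells, Wfdc2 is a secreted inhibitor with whey acidic protein (WAP) domains, and Cd24a and Prom1 mark epithelial progenitor-like and regenerating tubule cells. Elf3 belongs to the epithelium-restricted branch of the ETS transcription factors.

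Counted reads came to 33618076 in the control library and 38136616 in the CKO library. Levels are depth-scaled counts (CPM, after TMM scaling) and are followed in brackets by exact Poisson 95% intervals. Brackets after a ratio hold its 95% interval, from the exact Clopper-Pearson limits for the proportion of a gene's reads that came from the CKO library. With 1 library in each group no difference has a replicate check, the intervals cover counting error only, and no p-value is given. A gene was called at least 2-fold higher or lower when the log2 ratio of CPM + 0.5 reached 1 or -1, and 15129 genes that reached 1 CPM in at least 1 library were compared as expressed genes. Inmt itself counted 17678 control reads and 5283 CKO reads, so that 21.1% of its control level remained. All 18 proximal tubule markers and all 8 podocyte markers were expressed. They show that kidney RNA was present, but not that all regions of the kidney were sampled alike in both libraries.

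Start-site sequences (RefSeq, GRCm38) were matched for 8 of the 9 genes, all but Cd24a. The windows of 4 genes are shown because they stand for a large ratio with reads in both libraries (Muc1), the transcription factor of the group (Elf3), a gene with no control reads (Sprr1a) and the member that was not higher (Pigr). Each runs from 250 bases before to 50 after the annotated start, in lower case, with matches to a searched motif in capitals.
Muc1 (chr3:89228806-89229105, plus strand): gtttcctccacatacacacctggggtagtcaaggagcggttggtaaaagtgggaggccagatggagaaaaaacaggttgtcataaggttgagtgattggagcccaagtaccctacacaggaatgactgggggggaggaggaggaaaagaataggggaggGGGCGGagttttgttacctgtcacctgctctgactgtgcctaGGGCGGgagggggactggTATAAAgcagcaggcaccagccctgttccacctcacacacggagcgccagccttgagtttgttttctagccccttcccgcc
Elf3 (chr1:135258423-135258722, minus strand): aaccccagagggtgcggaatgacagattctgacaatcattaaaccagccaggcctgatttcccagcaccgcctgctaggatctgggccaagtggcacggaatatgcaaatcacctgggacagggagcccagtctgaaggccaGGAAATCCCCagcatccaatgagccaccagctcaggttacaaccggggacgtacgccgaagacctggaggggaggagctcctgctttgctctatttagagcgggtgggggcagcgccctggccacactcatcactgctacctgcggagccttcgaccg
Sprr1a (chr3:92485832-92486131, minus strand): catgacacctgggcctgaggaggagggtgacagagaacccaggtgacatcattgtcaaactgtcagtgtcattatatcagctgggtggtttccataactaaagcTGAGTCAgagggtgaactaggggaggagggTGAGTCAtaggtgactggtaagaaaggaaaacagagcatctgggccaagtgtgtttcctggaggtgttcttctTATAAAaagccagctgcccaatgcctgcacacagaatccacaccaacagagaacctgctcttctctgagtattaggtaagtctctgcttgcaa
Pigr (chr1:130826434-130826733, plus strand): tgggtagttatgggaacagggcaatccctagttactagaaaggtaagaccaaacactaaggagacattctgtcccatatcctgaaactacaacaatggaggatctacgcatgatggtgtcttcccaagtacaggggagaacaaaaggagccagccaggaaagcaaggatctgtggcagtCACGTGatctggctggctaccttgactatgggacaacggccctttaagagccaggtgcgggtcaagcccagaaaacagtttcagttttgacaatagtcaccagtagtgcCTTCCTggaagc

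Both strands were searched for the TATA box with the letters TATAAA, the GC box of Sp1-type factors with the letters GGGCGG and the AP-1 element with the letters TGANTCA. The E-box of USF-type factors was searched as CACGTG, the core recognised by ETS factors as AGGAAG, and the NF-kB site by its consensus, and no matches overlapped in the printed windows. The Muc1 window held a TATA box starting at position -31 and GC boxes at -91 and -49. The Sprr1a window held AP-1 matches at -146 and -116 and a TATA box at -43. Of 32851 RefSeq windows of 300 bases, 13.6% held a TATA box, 35.7% a GC box and 7.81% an AP-1 match. The Elf3 window held an NF-kB consensus match at -108, as did 4.51% of windows, and the Pigr window held the E-box at -71, as did 7.15%, besides an ETS match after its start. Across the 8 genes, a TATA box occurred in 3 (Muc1, Muc4 and Sprr1a), an AP-1 match in 2 (Sprr1a and Prom1), a GC box in 3 (Muc1, Wfdc2 and Prom1) and the ETS core in 5 (Muc4, Muc20, Pigr, Wfdc2 and Prom1), the last present in 35.4% of all windows. These are letter matches in a short window and say nothing about binding.

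Of the 9 genes, 7 were at least 2-fold higher in the CKO library, 0 were at least 2-fold lower, and Prom1 and Pigr lay in between. Among the 7, Muc4 and Sprr1a had 0 control reads and passed the minimum in the CKO library only, which fixed their call as higher. The background over all expressed genes was 10.3% past 2-fold upward and 1.66% past 2-fold downward. The members were chosen on this contrast, so their share is a description only. Their median log2 ratio was 1.63, against 0.01 for all expressed genes. Summed over the 8 genes other than Pigr, the level was 164 CPM in control and 502 CPM in CKO kidneys, a ratio of 3.07. Pigr alone supplied 69.3% of the 9 genes' summed control level and 35.2% of the CKO level, so that the ratio of the full sum was 1.46. These sums are of CPM, which are not scaled by length, so longer genes weigh more in them. In bulk RNA, more cells that carry a transcript and more transcript per cell cannot be told apart.

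**Figure D1:**
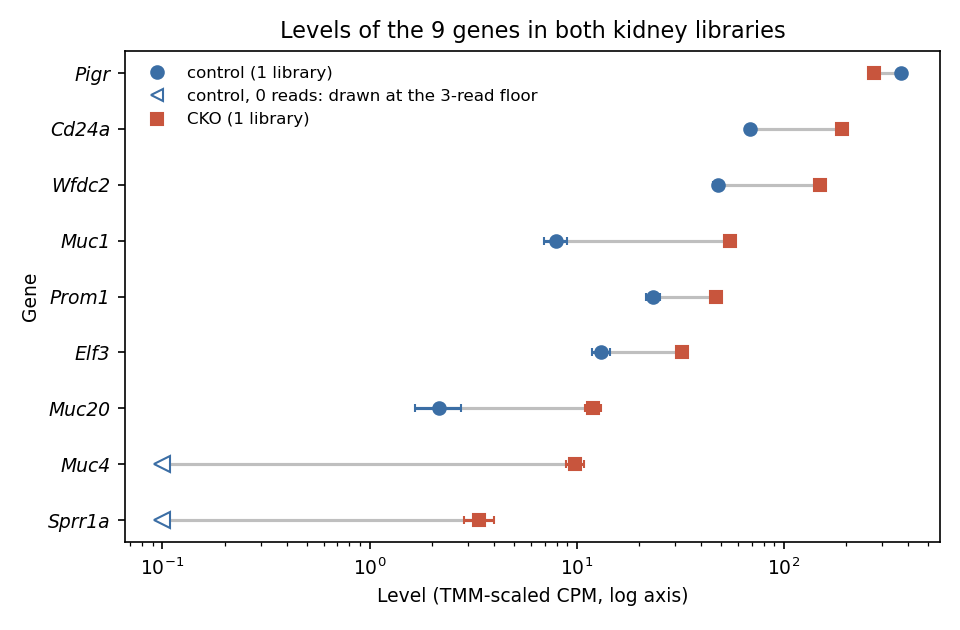
Levels of the 9 genes in TMM-scaled CPM on a log axis, with circles for the control library, squares for the CKO library, bars for exact Poisson 95% intervals (mostly smaller than the symbols), and open triangles for genes with 0 control reads, drawn at the floor of 3 reads. The CKO symbol lies to the right of the control symbol for 8 genes and to its left for Pigr.

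Among the transmembrane mucins, Muc1 had the highest level. It counted 239 control reads and 2352 CKO reads, or 7.94 CPM (6.96 to 9.01) against 55.2 CPM (53.0 to 57.5). It was thus 6.96-fold higher (6.09 to 7.98), and its log2 ratio of 2.72 ranked 69 from the highest among the expressed genes. Muc1 spans 4326 bp on chromosome 3, 89229056 to 89233381, with up to 7 exons, and no other gene of the count table overlaps it. Its nearest expressed neighbours on each side were also higher. The thrombospondin gene Thbs3, 2.21 kb away, was 2.54-fold higher (1.96 to 3.32), with 75 against 269 reads. Trim46, 0.788 kb away, was 5.04-fold higher (3.25 to 8.18), with 23 against 164 reads.

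Muc20, a small mucin that binds the hepatocyte growth factor receptor Met, counted 65 control reads and 512 CKO reads. This was 2.16 CPM (1.67 to 2.75) against 12.0 CPM (11.01 to 13.1), a ratio of 5.57 (4.30 to 7.33). Muc4, a mucin that binds the receptor tyrosine kinase ErbB2, counted 0 control reads, whose exact Poisson upper bound is 0.123 CPM, and 419 CKO reads, or 9.84 CPM (8.92 to 10.8). Against a floor of 3 reads (0.0996 CPM) Muc4 was at least 98.8-fold higher, and its log2 ratio of 4.37, which depends on the pseudocount, ranked 9 from the highest. Muc4 and Muc20 lie tail to tail on opposite strands of chromosome 16, Muc4 at 32735886 to 32782391 and Muc20 at 32777419 to 32797435. Their spans share 4973 bp and their GENCODE exons 627 bp. The library kit keeps the strand, but whether counting used it is not given in the sources used here, so the division of reads at the shared end is uncertain for both genes. The flanking genes Tnk2 and Rubcn had log2 ratios of 0.33 and 0.15, so that the higher levels at this locus were not seen in its expressed neighbours.

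Other mucin genes had few reads. Of 15 listed, 2 were expressed and 1 was at least 2-fold higher, at a median log2 ratio of 1.54 (2.59 with the gene at 0 in the control set at its floor). The median ranged from 0.29 to 3.07 over the alternative settings, and 1 of the 2 passed the minimum in the CKO library only. That gene, Mucl1, which encodes a small mucin-like secreted protein, had 0 reads against 126, at least 29.7-fold higher. Ovgp1, the oviductal glycoprotein gene, had 35 reads against 65. Muc2, the gel-forming mucin of the intestine, had 0 against 28 reads and Muc13, a transmembrane mucin of gut epithelium, 7 against 27, both below the expression minimum. Muc5b, Muc6 and Muc16 had 0 reads in both libraries. Sialomucins of other cell types counted 3 of 7 members past 2-fold upward (median log2 ratio 0.59). The leukocyte ligand gene Selplg was 4.45-fold higher (3.34 to 6.03), Parm1 3.89-fold and the leukocyte gene Spn 2.89-fold, whereas Cd164, the most abundant, had a ratio of 0.915 (0.893 to 0.938).

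Genes of the enzymes that build mucin-type O-glycans had ratios on both sides of 1. Of 22 expressed genes of 30 listed, 1 was at least 2-fold higher and 0 were at least 2-fold lower, with a median of -0.04. The one past the limit was Galnt12, which starts the glycan chain, at 35 against 129 reads, 2.61-fold higher (1.78 to 3.90). Galnt17 was at 22 against 79 reads (log2 ratio 0.94) and the sialyltransferase gene St6galnac4 at 61 against 192 (0.99). Galnt11, the most abundant and a glycosyltransferase of the proximal tubule that acts on megalin, had 985 CPM against 676 CPM, a ratio of 0.687 (0.676 to 0.698). Binding partners and sheddases of mucins had 2 of 13 genes at least 2-fold higher, against 10.3% of all expressed genes. Of these 13, 0 were at least 2-fold lower, and the median was 0.07. The 2 higher ones were the glycan-binding galectin genes Lgals3 (3.92-fold, 3.47 to 4.44) and Lgals1 (2.38-fold, 2.25 to 2.52). Lgals9 had a log2 ratio of 0.97. The receptor genes of the mucins did not go with them. Erbb2 had a log2 ratio of 0.05, and Met one of -0.94, from 332 CPM to 173 CPM. Ctnnb1, the beta-catenin gene and the most abundant of this list, had a log2 ratio of -0.08.

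Sprr1a encodes a small proline-rich protein that is cross-linked into the envelope of stratified epithelia and is induced in injured tissue. It counted 0 control reads and 144 CKO reads, or 3.38 CPM (2.85 to 3.98), at least 33.9-fold higher against the floor of 3 reads. It is a short gene, with 2 exons over 1928 bp (chromosome 3, 92483954 to 92485881). Its nearest expressed neighbours went opposite ways: Sprr2g, 109 kb away in the same gene cluster, had 0 against 52 reads, and Smcp, a sperm mitochondrial protein gene 98.0 kb away on the other side, 378 against 160. Of 27 other envelope genes, 6 were expressed, 3 at least 2-fold higher and 0 lower, with a median of 1.11 (1.49 with Sprr2g at its floor, and 0.42 to 2.72 over the alternative settings). Sprr2g and S100a14 passed the minimum in the CKO library only. The periplakin gene Ppl, a linker of keratins to desmosomes, was 6.67-fold higher (5.57 to 8.04), at 132 against 1245 reads. S100a14 had 8 against 168 reads, and the envoplakin gene Evpl, the most abundant, was 1.18-fold higher. Sprr1b and Sprr3, the nearest relatives of Sprr1a by name, and Flg, the filaggrin gene, had 0 reads in both libraries.

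An exact 0 in the control carries a limit. Of 2337 genes with CKO reads from 100 to below 300, the class of Sprr1a, 15 were at 0 and 2 at 1 to 3 control reads. Of 4017 genes with CKO reads from 300 to below 1000, as Muc4 had, 4 were at 0 and 0 were at 1 to 3. In the opposite direction 0 genes of these classes were at 0 in the CKO library. The bounds given for Muc4 and Sprr1a assume that no reads were present where 0 is listed, and that assumption was not tested.

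**Figure D2:**
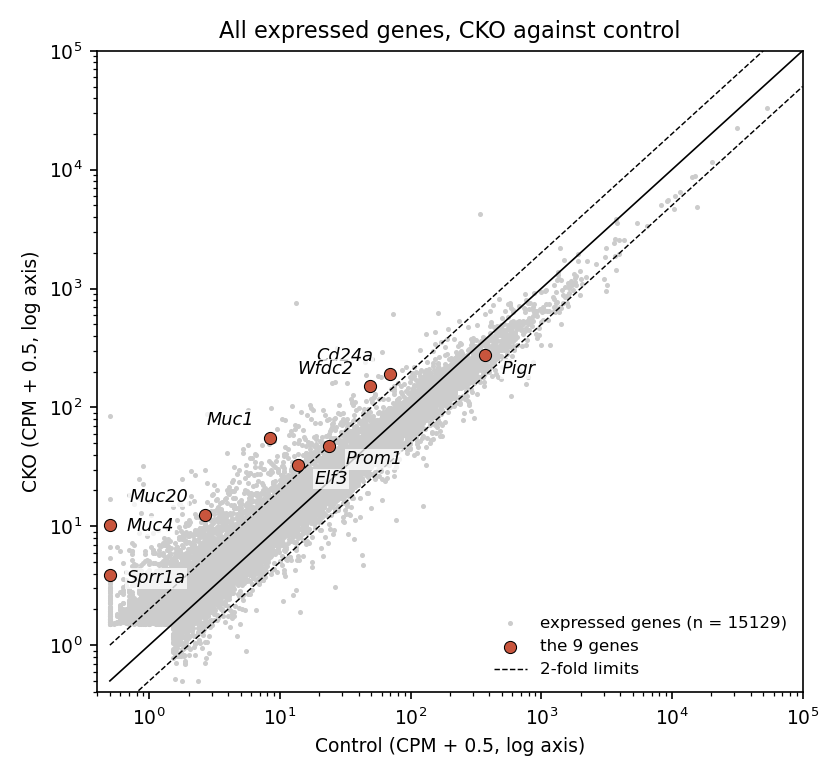
CKO against control level (CPM + 0.5, both axes logarithmic) for 15129 expressed genes in grey and the 9 genes in red, with the solid line at equal levels and dashed lines at 2-fold. Of the 9 genes, 7 lie above the upper 2-fold line, Prom1 lies on it and Pigr lies below the line of equality.

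Pigr was the one member with a lower level in the CKO library. It counted 11104 control reads and 11617 reads in the deeper CKO library, or 369 CPM (362 to 376) against 273 CPM (268 to 278). The CKO level was 74.0% of the control level, with a log2 ratio of -0.43, and 87.2% of expressed genes had a higher ratio. Pigr lies on chromosome 1, 130826684 to 130852249. Fcamr, the neighbouring gene 0.781 kb away and a receptor for IgA and IgM, was 4.06-fold lower (3.82 to 4.32), with 3921 against 1366 reads, or 130 CPM against 32.1 CPM. On the other side Mapkapk2, 201 kb away, had a log2 ratio of -0.11. The Pigr ratio is small enough for the scale to matter: with the deposited TPM values its log2 ratio was -0.01, on a scale that puts the median of all expressed genes at 0.40.

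Genes of immunoglobulin transport went both ways. Of 6 expressed genes of 9 listed, 2 were at least 2-fold higher and 2 at least 2-fold lower, with a median of 0.29. Besides Fcamr, the transferrin receptor gene Tfrc, whose product also binds polymeric IgA, was lower, at 99.1 CPM against 44.3 CPM (log2 ratio -1.15). B2m, the light chain of the neonatal Fc receptor and of class I molecules, was 2.20-fold higher (2.13 to 2.27), and the IgM heavy chain gene Ighm 3.58-fold (2.90 to 4.47). The level of Ighm, the gene of an antibody class that Pigr carries alongside IgA, was 3.42 CPM against 12.3 CPM. Jchain, the joining chain of polymeric antibodies, had 13 against 10 reads and Igha, the IgA heavy chain, 18 against 41, both below the expression minimum. The plasma and B cell list counted 2 of 4 expressed genes past 2-fold upward (median log2 ratio 0.99), with Sdc1, also an epithelial proteoglycan, at 3.05-fold (2.67 to 3.49) and Xbp1, the most abundant, at 1.12-fold.

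Wfdc2 counted 1448 control reads and 6398 CKO reads, or 48.1 CPM (45.6 to 50.6) against 150 CPM (147 to 154). It was 3.12-fold higher (2.95 to 3.31). The gene lies on chromosome 2, 164562715 to 164568510, and its flanking genes Pigt (log2 ratio 0.03) and Wfdc16 (-0.36) were within 2-fold. Of 21 other WAP domain genes in the table, 4 were expressed, and 0 of the 4 were at least 2-fold higher or lower, with a median of -0.05. Wfdc15b, the most abundant, had 1049 against 1647 reads (log2 ratio 0.15), Wfdc1 had 23 against 51 and Wfdc3 33 against 36. The antileukoproteinase gene Slpi, a well known relative, had 0 against 8 reads. Antimicrobial genes of the urinary tract had 3 of 7 expressed genes at least 2-fold higher, 0 lower and a median of 0.65: the siderophore carrier gene Lcn2 (12 against 1354 reads) and the lysozyme genes Lyz2 (156 against 3995) and Lyz1 (0 against 100), the last a near-identical copy whose reads may be divided between the pair. Lcn2 and Lyz1 passed the minimum in the CKO library only, so they were compared only because of their CKO level. Umod, the uromodulin gene and the most abundant, had 1386 CPM against 2170 CPM, a ratio of 1.57.

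Cd24a, which encodes a small mucin-like glycoprotein on a lipid anchor, counted 2072 control reads and 8169 CKO reads. This was 68.8 CPM (65.9 to 71.8) against 192 CPM (188 to 196), a ratio of 2.79 (2.66 to 2.93). Cd24a lies on chromosome 10, 43579169 to 43584265, and its flanking genes Bend3 and Qrsl1 had log2 ratios of -0.08 and 0.03. Prom1, the gene of the cholesterol-binding membrane protein prominin 1 (CD133), counted 704 control reads and 2004 CKO reads, or 23.4 CPM (21.7 to 25.2) against 47.1 CPM (45.0 to 49.2). Its plain ratio was 2.01 (1.85 to 2.20) and its log2 ratio of CPM + 0.5 was 0.99, so it fell just short of the 2-fold limit as set here. Prom1 is the longest of the 9 genes at 108427 bp (chromosome 5, 43993621 to 44102047), with up to 28 exons. GENCODE places the noncoding genes Gm42716 (same strand) and Gm16401 (antisense) over parts of it. Fgfbp1 and Tapt1, its neighbours, had log2 ratios of 0.12 and -0.28.

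Other genes of tubule progenitors and repair were mostly higher. Of 13 expressed genes, 7 were at least 2-fold higher, against 10.3% of all expressed genes, and 0 at least 2-fold lower. Log2 ratios of 10 of the 13 were above 0, with a median of 1.02. Vcam1, an adhesion molecule of injured proximal tubule cells, was 12.2-fold higher (10.7 to 13.9), at 244 against 4198 reads. Sox9, a transcription factor of regenerating tubules, had 10 against 354 reads, 25.0-fold higher (13.5 to 52.7), and the retinoic acid synthesis gene Aldh1a2 was 7.05-fold higher (5.57 to 9.04). Sox9 passed the minimum in the CKO library only. Prom2, the closest relative of Prom1, was 1.51-fold higher (1.27 to 1.82). Lgr4, a receptor for R-spondins and the most abundant, had a log2 ratio of -0.46.

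Elf3 counted 397 control reads and 1370 CKO reads, or 13.2 CPM (11.9 to 14.5) against 32.2 CPM (30.5 to 33.9). It was 2.44-fold higher (2.18 to 2.74). The gene spans 4899 bp on chromosome 1, 135253574 to 135258472, and the span of the antisense GENCODE gene Gm26642 covers all of it. Whether exons of the pair overlap was not examined, so it is not known whether their reads could be confused. Its flanking genes Arl8a (log2 ratio -0.18) and Rnpep (-0.03) were within 2-fold. Of 11 expressed ETS factor genes, 3 were at least 2-fold higher, 0 were lower and the median was 0.39. They were Ehf, the other epithelial factor expressed at a like level, at 334 against 1121 reads (2.37-fold, 2.10 to 2.69), Elf5 at 10 against 97 reads (6.86-fold, 3.57 to 14.8) and Etv4 at 11 against 60 (3.86-fold, 2.01 to 8.14). Etv6, the most abundant, had a log2 ratio of -0.30.

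Further epithelial regulators and surface genes were described in the same way. Other epithelial transcription factors had 4 of 13 expressed genes at least 2-fold higher, 0 lower and a median of 0.68. Klf5 was 4.92-fold higher (3.22 to 7.81), the grainyhead-like factor gene Grhl2 2.86-fold (2.26 to 3.65) and the splicing regulator gene Esrp1 2.30-fold (1.89 to 2.83), and Tfcp2l1, the most abundant, 1.26-fold. Epithelial surface and protease genes had 6 of 17 at least 2-fold higher, 0 lower and a median of 0.52. The tight junction genes Cldn4 and Cldn7 were 6.96-fold (6.03 to 8.08) and 3.54-fold (2.98 to 4.24) higher. Cdh16, the kidney cadherin gene and the most abundant, had a ratio of 0.892 (0.879 to 0.905), so the most abundant gene of the list was not among the higher ones. Reference genes, used as housekeeping standards, had 1 of 13 at least 2-fold higher (B2m) and 1 at least 2-fold lower (Gusb, log2 ratio -1.90), with a median of -0.36.

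**Figure D3:**
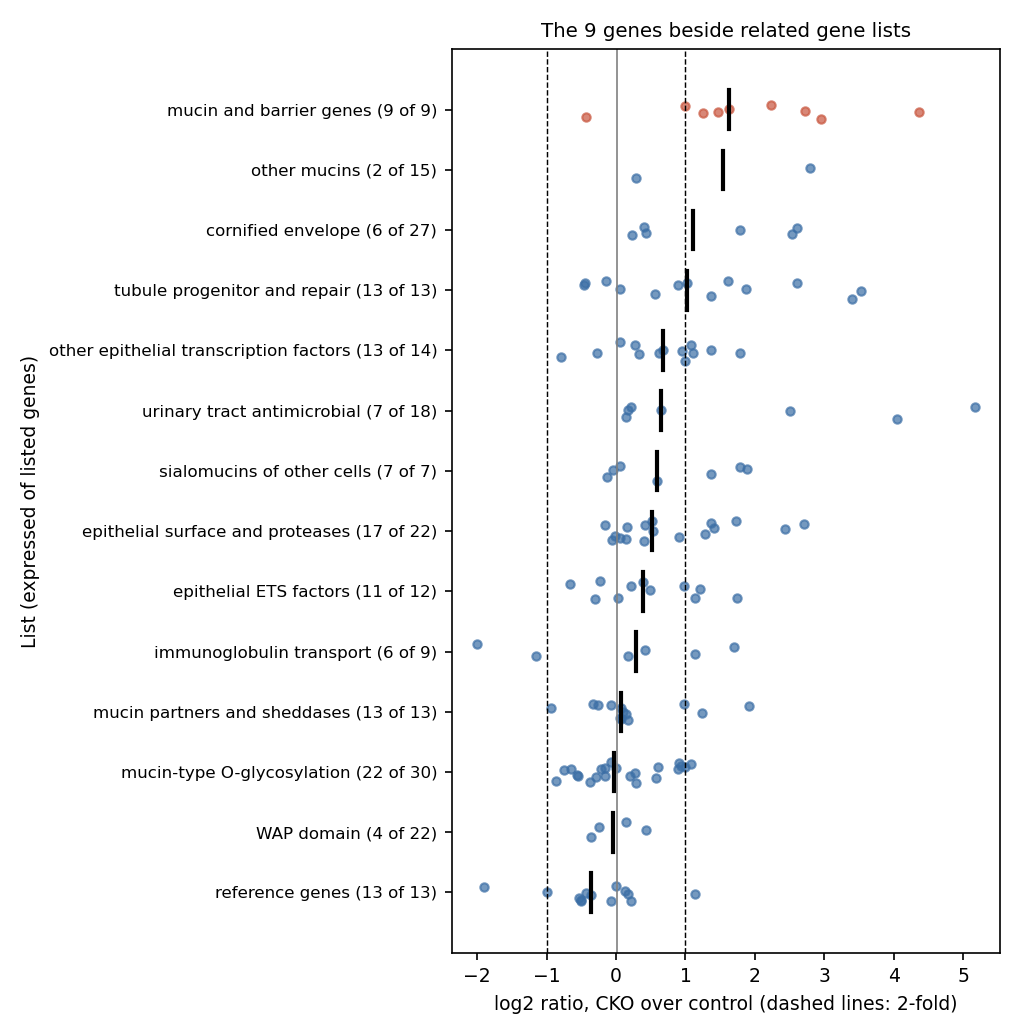
Log2 ratio of each expressed gene (points) in the 9 mucin and barrier genes (red) and related lists (blue), with black bars for list medians, a grey line for the median of all expressed genes and dashed lines at 2-fold; labels give expressed of listed genes. The 9 genes have a median of 1.63, and the O-glycosylation and WAP domain lists have medians of -0.04 and -0.05.

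Members that were scarce in the control had the larger ratios, and so did scarce genes in general. The 4 members under 10 CPM in the control (Muc1, Muc4, Muc20 and Sprr1a) had log2 ratios from 2.24 to 4.37. Of 5683 expressed genes at that level, 23.2% were at least 2-fold higher, at a median of 0.41. Genes under 1 CPM in the control, such as Muc4 and Sprr1a, entered this class only through their CKO level. The expression minimum thus raises the upward share of this class. The 4 members from 10 to 100 CPM (Wfdc2, Cd24a, Prom1 and Elf3) had log2 ratios from 0.99 to 1.63, where 3% of 7375 genes were at least 2-fold higher and the median was -0.06. Of 2071 genes at 100 CPM or more, as Pigr was, 0.483% were past 2-fold upward and 4.68% past 2-fold downward, and the median was -0.32. The control level enters the ratio, so these shares are given as a description.

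Levels of different genes were compared per length, with the deposited TPM values and the counting error of their reads. In the control the order was Pigr at 161 TPM, Wfdc2 at 114, Cd24a at 63.7, Prom1 at 10.6, Elf3 at 8.71, Muc1 at 5.94 and Muc20 at 1.37, with Muc4 and Sprr1a listed at 0. The intervals of these neighbours did not overlap. In the CKO library Wfdc2 led at 478 TPM, followed by Cd24a at 238, Pigr at 160, Muc1 at 55.5, Elf3 at 36.0, Prom1 at 28.3, Muc20 at 10.6, Sprr1a at 9.62 and Muc4 at 1.97. Muc20 (9.69 to 11.6) and Sprr1a (8.11 to 11.3) could not be ordered at this depth. Muc1 had thus moved from rank 6 to rank 4, and Pigr from rank 1 to rank 3. Muc4, whose GENCODE exons cover 11757 bases, had the lowest TPM of the 9 in the CKO library although its 419 reads exceeded the 144 of Sprr1a.

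The deposited FPKM values imply a length for each gene, the one that turns its reads into its FPKM. It was computed with the counted reads of the library as depth, so it need not equal the length of an annotated transcript. For 6 of the 7 genes with reads in both libraries these lengths differed between the libraries by a ratio of 0.969 to 1.01. For Elf3 the length was 2888 bases for the control and 2291 bases for the CKO reads, a ratio of 0.793. The Elf3 ratio was 3.83 with FPKM and 4.13 with TPM, against 2.44 with TMM-scaled counts. That of Wfdc2, whose length hardly differed, was 3.89 with FPKM and 3.12 with TMM-scaled counts. The depth scale thus enters these changes as well as the length. GENCODE lists 3 transcripts of Elf3, and which transcripts gave the reads was not analysed here.

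**Figure D4:**
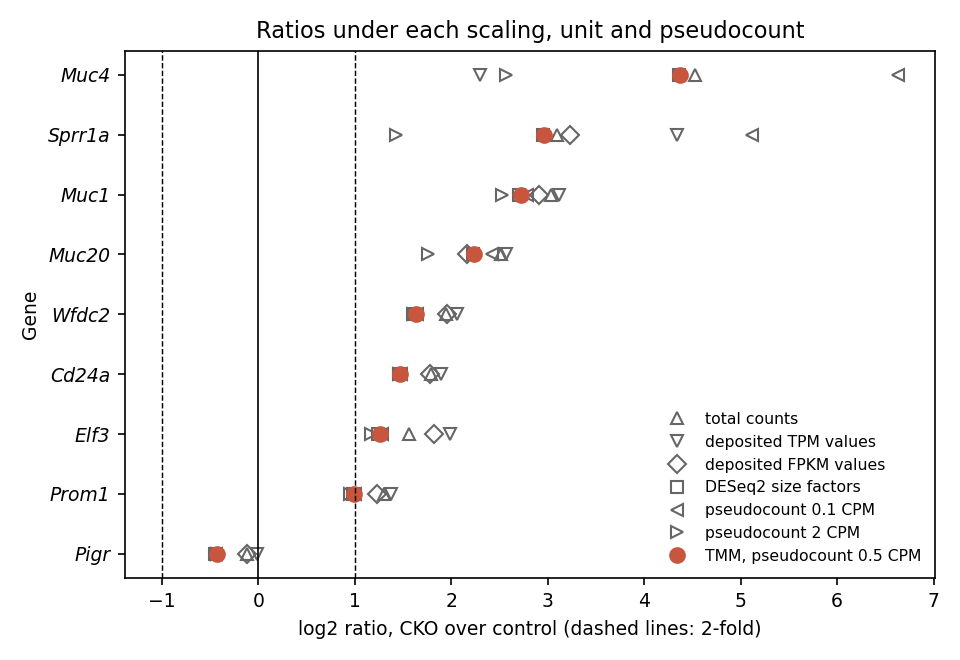
Log2 ratio (CKO over control) of each of the 9 genes, with filled circles for TMM-scaled CPM + 0.5 and open symbols for total counts, deposited TPM and FPKM, DESeq2 size factors and pseudocounts of 0.1 and 2 CPM; dashed lines mark 2-fold. Pigr lies below 0 at every symbol, the other 8 genes above it, and Muc4 and Sprr1a spread the most, from 2.30 to 6.64 and from 1.43 to 5.12.

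For each member, the other named gene closest to it in both libraries was found by the distance between their log2 levels (CPM + 0.5). With only 2 libraries this likeness means a like level and a like ratio. The nearest genes were Golm1 for Muc1, Slc14a2 for Muc4, Basp1 for Muc20, Evi2b for Sprr1a, Mlxipl for Pigr, Lgals3bp for Wfdc2, Pea15a for Cd24a, Cav2 for Prom1 and Ssbp4 for Elf3. The distances ranged from 0.01 for Prom1 to 0.15 for Sprr1a. Slc14a2, the urea transporter gene of the inner medullary collecting duct, had 0 against 405 reads.

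Marker lists of kidney cell types went in different directions. Proximal tubule markers had 6 of 18 genes at least 2-fold lower, 0 higher and a median of -0.79, and their summed level was 54242 CPM against 26374 CPM. Kap, an androgen-regulated transcript and the most abundant, had a log2 ratio of -1.68, and the inositol oxygenase gene Miox -1.18. Collecting duct markers had 2 of 16 at least 2-fold higher, against 10.3% of all expressed genes. All 16 were above 0, with a median of 0.45 and a sum of 658 CPM against 928 CPM. Krt18 was 6.53-fold higher (5.58 to 7.70), the water channel gene Aqp2 2.05-fold (1.94 to 2.16) and Krt8, the most abundant, 1.56-fold. Inner medulla and thin limb markers had 8 of 11 at least 2-fold higher, 0 lower and a median of 1.81, with a sum of 247 CPM against 380 CPM. Fst, the follistatin gene, was at 16 against 505 reads and Slc14a2 is given above, while the most abundant marker, the inositol carrier gene Slc5a3, was 1.35-fold higher.

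Urothelial markers had 4 of 6 expressed genes of 16 listed at least 2-fold higher, 0 lower and a median of 1.41 (2.28 with genes at 0 in the control at their floor, and 0.67 to 2.35 over the alternative settings), with a sum of 60.9 CPM against 141 CPM. Of the 6, Krt20, Psca and Upk3b passed the minimum in the CKO library only. Krt20 had 2 against 262 reads, Psca 0 against 103, and Krt7, the most abundant and also a collecting duct keratin, was 2.34-fold higher (2.21 to 2.48). The defining uroplakin genes Upk1b, Upk2 and Upk3a had 0 reads in both libraries, and Upk1a had 25 against 35 reads. The macrophage list counted 11 of 12 genes past 2-fold upward, at a median of 2.65 (2.74 with Ms4a7 at its floor), with a sum of 79.4 CPM against 382 CPM. Ccr2 was 13.4-fold higher (10.5 to 17.5) and Csf1r, the most abundant, 1.83-fold. Mesothelial markers had 2 of 3 expressed genes of 7 listed at least 2-fold higher, and the median was 1.59 (3.34 with Upk3b at its floor, and 0.30 to 4.64 over the alternative settings). They were Krt19, a keratin of many simple epithelia, at 12 against 935 reads, and Upk3b at 0 against 43, and both passed the minimum in the CKO library only. With a minimum of 10 CPM Krt19 alone was left, and the value of 4.64 is its own. The third, Wt1, also a podocyte gene, had a log2 ratio of -0.04, and Msln, the mesothelin gene, and Lrrn4 had 0 against 4 and 0 against 5 reads. Their sum was 9.37 CPM against 31.9 CPM.

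Other cell types differed less. Of the thick ascending limb and distal tubule markers 0 of 12 passed 2-fold, with a median of -0.03 and a sum of 5081 CPM against 5241 CPM. Egf, the epidermal growth factor gene, had a log2 ratio of -0.69, Calb1 -0.67, and Umod, the most abundant, 0.65. Podocyte markers had 0 of 8 past 2-fold and a median of 0.07, with Synpo at 0.35, Podxl, the most abundant, at 0.06, and a sum of 446 CPM against 450 CPM. Endothelial markers had 0 of 9 past 2-fold and a median of -0.03, with Kdr at -0.45, Egfl7 at 0.30, the most abundant, Plvap, at 0.08 and a sum of 591 CPM against 571 CPM. The part of any of these cell populations, or of the region of kidney sampled, in the members' ratios was not tested.

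**Figure D5:**
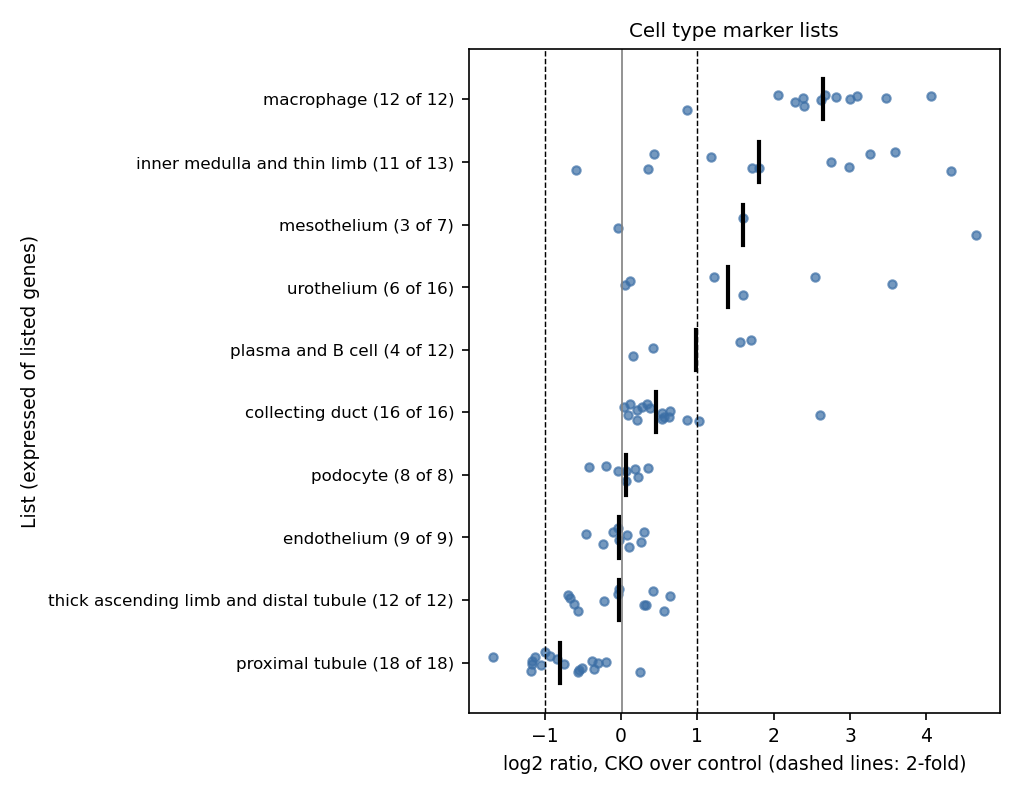
Log2 ratio of each expressed marker gene (points) by cell type list, with black bars for medians, a grey line for the median of all expressed genes and dashed lines at 2-fold; labels give expressed of listed genes. Macrophage markers have a median of 2.65 and proximal tubule markers one of -0.79.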

How the data were processed

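RNA was measured by stranded mRNA sequencing of whole kidneys, per the labels' protocols, with 1 control and 1 CKO library. The authors' table holds raw read counts per gene (45777 genes), and its deposited FPKM and TPM values are scaled by gene length and depth, per the file headers. The authors' other deposited table gives a normalized signal for the 19550 genes with reads in both libraries, which differed from the CPM used here by at most 0.000445 of their value. The submitters' processing notes name mm10 and, with no role or order, HTSeq, STAR 2.7.3a, FastQC, edgeR, DESeq2 and Cufflinks 2.2.1.

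Counts were scaled by TMM (edgeR 4.0.16, R 4.3.3) over genes with a read, giving effective sizes of 30.1 and 42.6 (in Mreads) for control and CKO. Ratios, intervals and lists were computed in Python 3.11.15 with scipy 1.17.1, with a pseudocount of 0.5 CPM and a minimum of 1 CPM, and a gene at 0 was set against 3 reads as its floor. In a simulation of the CKO to control contrast with 45777 genes, 100 of 100 genes changed 4-fold up and 100 of 100 changed 4-fold down passed 2-fold, and 0 of 14611 unchanged genes did. The simulation draws counting error only.

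The members, the 13 gene family lists and the 10 cell type lists were chosen with earlier results of these data known. Named genes are the members, the 3 genes with the largest absolute log2 ratio in a family list or 2 in a cell type list, the most abundant of each list, overlapping and nearest genes, Ehf, Elf5, Prom2, Sox9, Vcam1 and Inmt. Further list genes (Muc2, Muc13, Erbb2, Met, Jchain, Igha, Slpi, Upk1a, Wt1, Msln, Lrrn4 and those at 0) were named after their values were seen. A few genes named by these criteria are not reported here. Gene spans and start-site windows come from RefSeq and exons from GENCODE M21, both on GRCm38. The alternatives were DESeq2 1.42.0 size factors, total counts with and without abundant genes, the deposited units, other pseudocounts, minimums and limits, and a thinned CKO library.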

Additional observations from a re-analysis of the deposited data

How the results depend on the processing

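Under all 13 alternatives Muc1, Muc20, Wfdc2, Cd24a, Prom1 and Elf3 kept a log2 ratio above 0, as did Muc4 and Sprr1a wherever they passed the minimum, and Pigr one below 0 (-0.45 to -0.01), and the number of members at least 2-fold lower stayed 0. The number at least 2-fold higher ranged from 5 to 8 around the main 7. It was 5 with a minimum of 10 CPM and with the authors' normalized table, which leave out Muc4 and Sprr1a by their construction, and 8, with Prom1 added, with total counts (also without the abundant genes), TPM values, a pseudocount of 0.1 CPM, a limit of 1.5-fold and the thinned library. With FPKM values it was 7, with Prom1 above the limit and Muc4 below the minimum. The members' median was 1.95 with total counts, 1.83 without the 50 most abundant and mitochondrial genes in the totals, 2.06 with TPM, 1.88 with FPKM, 1.47 with the normalized table, 1.45 with a pseudocount of 2 CPM and 1.47 with a minimum of 10 CPM. The median of all expressed genes moved to 0.32 with total counts, 0.21 without abundant genes, 0.40 with TPM and 0.26 with FPKM, so part of each shift is common to all genes. Over all expressed genes, the counts higher and lower were 2391 and 102 with total counts, 2613 and 139 with TPM, 825 and 167 with a pseudocount of 2 CPM, and 2920 and 1037 with a limit of 1.5-fold. The lower count was 158 without abundant genes and 102 with FPKM, and the higher count 573 with a minimum of 10 CPM. The main counts were 1552 and 251. Of the medians of 23 lists, 18 kept their sign and 5 crossed 0 (O-glycosylation, WAP domain, reference genes, thick ascending limb and distal tubule, endothelium). Ranges over the settings were, for mesothelium 0.30 to 4.64, other mucins 0.29 to 3.07, cornified envelope 0.42 to 2.72, urothelium 0.67 to 2.35, inner medulla and thin limb 1.17 to 2.59 and plasma and B cell 0.21 to 1.56. With a pseudocount of 0.1 CPM the mesothelial median (3.47) exceeded that of macrophage markers (2.84), the reverse of the main order. With a minimum of 10 CPM it did so too (4.64 against 2.74), but there Krt19 was the only mesothelial gene left. No paired analysis was possible because each group has 1 library, and for the same reason no library could be left out. Depth limits Sprr1a, Muc4 and Muc20 most.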
